A study of Mus musculus with 18 samples.

Results

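The imprinted growth genes Igf2, H19, Dlk1, Mest, Peg3, Cdkn1c and Grb10 were followed in mouse hearts with and without a TNF-alpha transgene. The members are the probe sets whose platform gene symbol is one of these 7, which gave 12 probe sets for 7 genes, of 8252 genes on the array. Of these 12 probe sets, 9 passed a filter on low signal and were tested, and every gene kept at least 1. The H19 probe set also carries the symbol Mir675 in the platform annotation, a microRNA that is cut from the H19 transcript, and it was read as H19.

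Total RNA of heart had been hybridised to Affymetrix U74Av2 arrays, an oligonucleotide array that gives 1 signal for each probe set, with 1 array for each sample. The TNFTg mice carry a TNF-alpha transgene whose expression the labels call cardiac-specific, without naming its promoter or the line, and the FVB mice are the strain without it. The groups were TNFTg hearts of 3 weeks (3 female and 3 male arrays), TNFTg male hearts of 13 weeks (3 arrays), TNFTg female hearts of 40 weeks (3 arrays) and FVB hearts of 3 weeks (2 female and 3 male arrays). The labels give no litter, animal number, diet or drug for any group, and leave unsaid whether each array had its own animal, so that a p-value speaks for the spread of these samples alone, some of which may be technical. All FVB hearts were 3 weeks old, so at 13 and 40 weeks age and transgene cannot be told apart in a comparison with FVB and each later age was sampled in 1 sex.

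Genomic imprinting is the silencing of a gene on the chromosome inherited from 1 parent, by methylation laid down in the egg or sperm. Many imprinted genes act on growth before and shortly after birth: those read from the father's copy tend to promote it and those read from the mother's copy tend to restrain it. Igf2 and H19 are neighbours that compete for shared enhancers, with Igf2 read from the paternal and H19 from the maternal chromosome, and in the mouse heart and most other organs their transcripts are abundant in the fetus and decline after birth.

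H19 was the gene called lower at both 13 and 40 weeks than at 3 weeks in TNFTg hearts. Its calls were lost in 7 and 19 of 28 alternatives. Limma called 0.523% and 0.671% of all tested probe sets in these 2 comparisons. Among the age comparisons within TNFTg hearts, Igf2 and Peg3 were called lower by their brightest probe sets only in the mean of the 2 age changes. That comparison was added after the data had been seen, and the call of Igf2 was lost in 10 of its 28 alternatives. Mest was not called in any of these age comparisons. The 250 bases before a transcription start of Igf2, Peg3 and Mest are shown so that 2 genes called in that mean can be read beside one that was not. They are RefSeq sequences of build GRCm38.p6, from the C57BL/6J strain and not from FVB, and were matched by symbol. Starts were found for 5 of the 7 genes, and H19 and Cdkn1c are named only. Capitals mark GGGCGG, the core of a GC box, in Igf2 and Mest, and GGGGCCCC in Peg3, each searched on both strands, and the matches shown do not overlap.
Igf2 promoter, chr7:142657497-142657746, minus strand: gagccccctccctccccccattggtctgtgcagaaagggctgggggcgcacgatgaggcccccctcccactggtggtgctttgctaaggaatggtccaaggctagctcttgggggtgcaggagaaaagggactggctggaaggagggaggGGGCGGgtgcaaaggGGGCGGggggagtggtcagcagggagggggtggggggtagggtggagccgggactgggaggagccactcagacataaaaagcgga
Peg3 promoter, chr7:6730420-6730669, minus strand: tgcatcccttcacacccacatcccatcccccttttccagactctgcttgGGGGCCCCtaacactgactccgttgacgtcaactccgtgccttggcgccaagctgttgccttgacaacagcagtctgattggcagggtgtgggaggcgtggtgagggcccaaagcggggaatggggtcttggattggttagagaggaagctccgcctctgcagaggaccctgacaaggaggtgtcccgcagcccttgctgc
Mest promoter, chr6:30737800-30738049, plus strand: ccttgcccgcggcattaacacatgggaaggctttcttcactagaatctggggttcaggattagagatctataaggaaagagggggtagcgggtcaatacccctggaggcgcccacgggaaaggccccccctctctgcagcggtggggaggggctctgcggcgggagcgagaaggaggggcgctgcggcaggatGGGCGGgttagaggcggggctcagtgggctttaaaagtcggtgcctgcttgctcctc
The Igf2 window, at the most downstream of the 4 starts that were matched, holds 2 GGGCGG matches and the Mest window holds 1. The other Igf2 windows hold 0, 0 and 1, and the other Mest windows 1 each. For genes not called in that mean and not shown, the Grb10 windows hold 5 and 0 and the Dlk1 window 0. Of 32851 mouse promoter windows, 32.7% hold GGGCGG. The Peg3 window holds 1 GGGGCCCC, which 0.889% of windows hold, and no GGGCGG. None of the 3 windows shown holds TATAAA, which 12.4% of windows hold. These matches describe letters and were not measured as binding sites.

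H19 makes no protein. Its transcript carries the precursor of miR-675, whose 2 mature arms are shown because H19 had the largest fall with age of the 7 genes, with the seed, bases 2 to 8, in capitals.
mmu-miR-675-5p, chr7:142577112-142577133, minus strand: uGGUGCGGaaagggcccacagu
mmu-miR-675-3p, chr7:142577078-142577099, minus strand: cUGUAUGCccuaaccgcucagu
The 2 arms have different seeds. The array measured the long H19 transcript, and neither arm was measured.

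The transgene check held on every array, with Tnf signals of 5476 to 11343 in TNFTg hearts of 3 weeks, 7507 to 10842 at 13 weeks and 8774 to 12082 at 40 weeks, against 12.5 to 124.9 in FVB hearts. Summed over the 14 cardiomyocyte markers on the array, which check the tissue, signals were 122828 to 237090 in TNFTg hearts of 3 weeks and 233572 to 368502 in FVB hearts. In a whole heart, fewer cells of a type and less RNA in each cell cannot be told apart. The 2 columns of FVB female replicates 1 and 2 were identical in every value and were counted as 1 array, which leaves 17 distinct arrays. That array stood apart, with a highest Spearman correlation of 0.856 with any other array, against 0.96 or more for each of the rest, and results that rest on it are given with and without it. Of the 3 arrays labelled FVB male, replicates 1 and 2 had signals of 1381 and 2706 for Xist, a transcript of cells with 2 X chromosomes. Replicate 3 had 5.9. For Eif2s3y, a gene of the Y chromosome, these 3 arrays had 298.7, 67.4 and 544.9, so replicate 1 had signal for both. The FVB female array that stood apart had 115.3 for Eif2s3y and the other FVB female 40.9. TNFTg arrays had 347.8 to 484.4 in males and 2.9 to 30.8 in females. Sex is therefore given below only as labelled. RNA integrity was read from the Actb control probe sets. Their 3' over 5' signal was 1.12 to 1.437 in TNFTg hearts of 3 weeks, 1.235 to 1.476 at 13 weeks and 1.387 to 1.771 at 40 weeks. It was 1.293 to 1.973 in FVB hearts, highest on the array that stood apart. The part of these differences in the results below was not tested, except where values without an array are given.

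Signals are on the authors' linear scale, in which each array's trimmed mean lies near a common value, and they are compared between arrays within a probe set, never between genes. Differences are on the log2 scale with signals below 44.675 set to that floor, from a limma fit of the 17 arrays, and a difference was called at a Benjamini-Hochberg adjusted p under 0.05 over all 7453 tested probe sets.

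**Figure D1:**
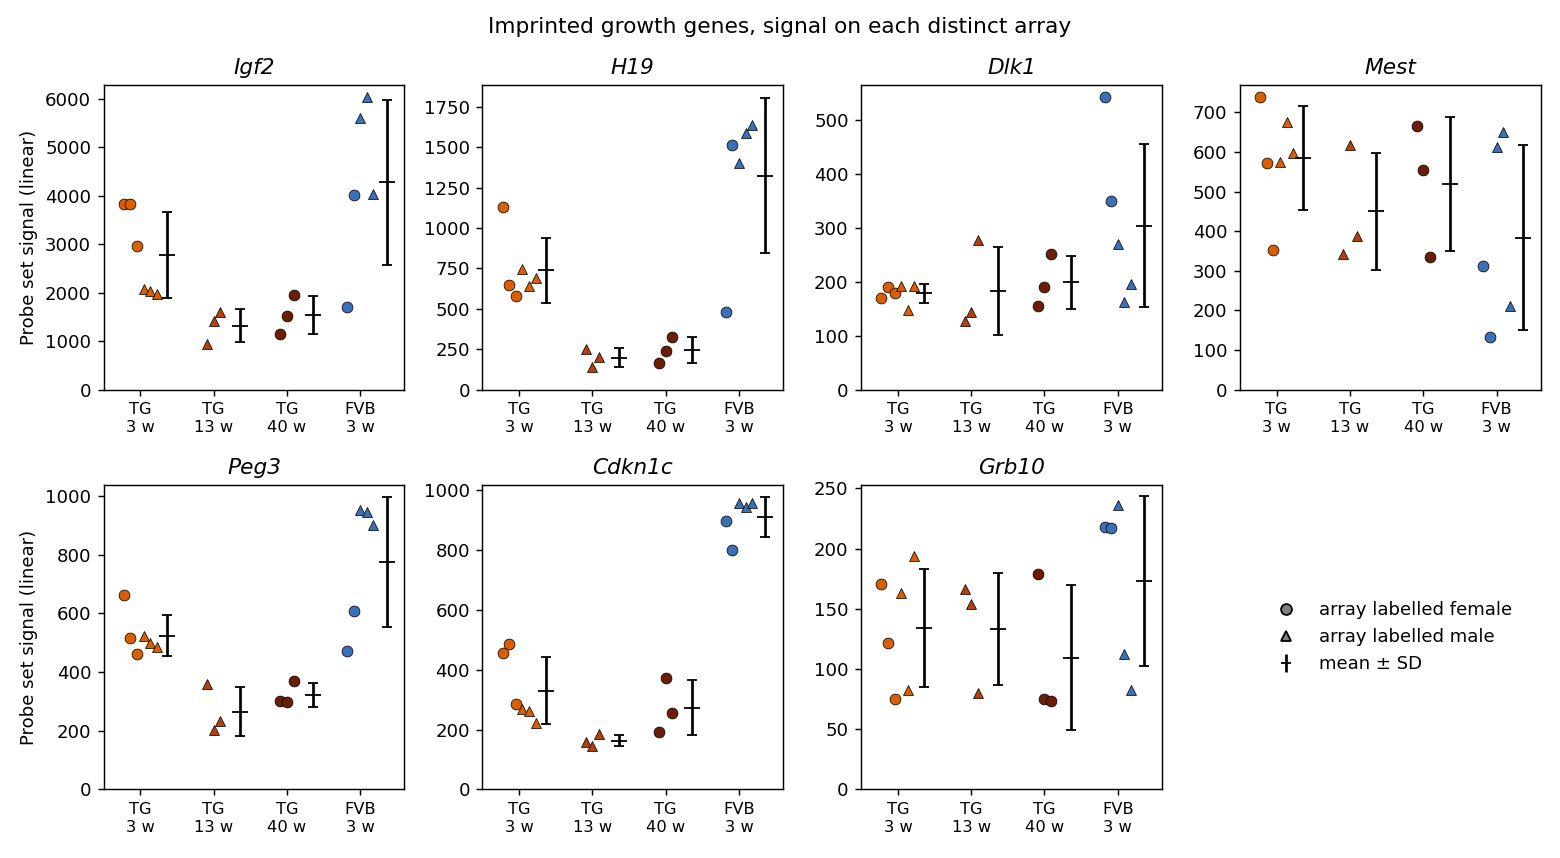
Probe set signal (linear scale, vertical axis, from 0) of each of the 7 genes on each distinct array, where TG stands for TNFTg. Circles are arrays labelled female, triangles arrays labelled male, and the bar beside each group is its mean and SD. For Igf2, H19 and the brightest Peg3 probe set, all 6 arrays of 13 and 40 weeks lie below all 6 TNFTg arrays of 3 weeks. That holds for 1.09% of all tested probe sets. For Cdkn1c all 6 TNFTg arrays of 3 weeks lie below all 5 FVB arrays, which holds for 9.14%.

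Igf2 encodes insulin-like growth factor 2, the fetal growth hormone of the group. In TNFTg hearts of 3 weeks its signal was 3836, 3835 and 2958 in females and 2079, 2036 and 1969.9 in males. It was 951, 1414 and 1608 in TNFTg males of 13 weeks and 1155, 1525 and 1949.9 in TNFTg females of 40 weeks, against 1712 and 4018.5 in FVB females and 5599.6, 6036 and 4035 in FVB males of 3 weeks. Every TNFTg array of 13 and 40 weeks was below every TNFTg array of 3 weeks, as in 1.09% of all tested probe sets. The closest pair was 1949.9 and 1969.9. The FVB range held all TNFTg arrays of 3 weeks. The lowest FVB value, 1712, came from the array that stood apart. At 3 weeks the log2 difference of TNFTg to FVB hearts was -0.46 (SE 0.22, limma adjusted p = 0.0965). Without that array it was -0.77 (SE 0.20, limma adjusted p = 0.00684) and Igf2 was called. A second Igf2 probe set lay at the floor on every array but that same one, where it read 114.8, and was not tested.

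H19, the maternally read non-coding partner of Igf2, restrains growth in mouse embryos. Its signal in TNFTg hearts of 3 weeks was 1129, 648 and 577 in females and 747, 638.5 and 689.6 in males. At 13 weeks TNFTg males had 253, 139.6 and 202 and at 40 weeks TNFTg females had 166.5, 238 and 328, against 483 and 1514 in FVB females and 1399.8, 1587 and 1636 in FVB males of 3 weeks. The highest later value, 328, was well under the lowest TNFTg value of 3 weeks, 577, and 4 of the 5 FVB arrays were above all TNFTg arrays. At 3 weeks the log2 difference of TNFTg to FVB hearts was -0.67 (SE 0.28, limma adjusted p = 0.0559). Without the FVB array that stood apart, where H19 read 483, it was -1.08 (SE 0.24, limma adjusted p = 0.00238). Without TNFTg female replicate 1, the highest of its group at 1129, it was -0.82 (limma adjusted p = 0.0274). H19 was called lower in 8 of the 28 alternative settings of that comparison.

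Cdkn1c encodes p57, an inhibitor of cyclin-dependent kinases that holds cells out of division and is read from the maternal copy. Its signal was 454, 486 and 284 in TNFTg females and 267, 261.5 and 221.5 in TNFTg males of 3 weeks. It was 160.0, 146 and 184 in TNFTg males of 13 weeks and 190.3, 373 and 257 in TNFTg females of 40 weeks, against 895 and 799.6 in FVB females and 955.5, 943 and 954 in FVB males of 3 weeks. All 12 TNFTg arrays lay below all 5 FVB arrays, and the FVB arrays lay close together, at 909.4 ± 66.2 (SD, n = 5), against 329.0 ± 112 (SD, n = 6) in TNFTg hearts of 3 weeks. Over all tested probe sets 9.14% had every TNFTg array of 3 weeks below every FVB array. Cdkn1c fell by 1.51 (SE 0.18, limma adjusted p = 4.98e-06) on the log2 scale in TNFTg hearts at 3 weeks, to 35.1% of the FVB level, and it was called in each of the 28 alternatives.

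Grb10 encodes an adaptor that binds insulin and IGF receptors and dampens their signal, and is read from the maternal copy in most tissues. Its signal was 170.8, 121 and 75.1 in females and 163, 82.5 and 194 in males of the TNFTg hearts of 3 weeks, 166, 154 and 80.0 in males of 13 weeks and 179, 75.5 and 73.7 in females of 40 weeks. FVB hearts had 218 and 217 in females and 236, 112.5 and 82.4 in males. The groups overlapped throughout, and the log2 difference of TNFTg to FVB hearts at 3 weeks was -0.41 (SE 0.34, limma adjusted p = 0.338), with a 95% interval of -1.13 to 0.31. The 2 other Grb10 probe sets did not pass the filter on low signal.

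Peg3 encodes a zinc finger protein read from the paternal copy, which acts in growth, in maternal care and in cell death pathways in mice. The brightest of its 3 probe sets read 664, 515 and 463 in TNFTg females and 521.5, 500.2 and 484 in TNFTg males of 3 weeks. It read 360.3, 202 and 232 in TNFTg males of 13 weeks and 301, 298 and 369 in TNFTg females of 40 weeks, against 472 and 607 in FVB females and 953, 947 and 901 in FVB males of 3 weeks. The later TNFTg arrays lay below all TNFTg arrays of 3 weeks, as in 1.09% of all tested probe sets. The FVB females overlapped with TNFTg hearts of 3 weeks while the FVB males did not. At 3 weeks Peg3 fell by 0.44 (SE 0.16, limma adjusted p = 0.0323), to 73.7% of the FVB level. The second probe set did not overlap between the groups, with 251 to 334 in TNFTg hearts of 3 weeks against 379 to 786 in FVB hearts. Every TNFTg array of 3 weeks was below every FVB array in 9.14% of all tested probe sets. This second probe set fell by 0.81 (SE 0.14, limma adjusted p = 0.000275). The third was at -0.41 (SE 0.19, limma adjusted p = 0.0899). The call of the brightest probe set was lost without FVB female replicate 3 (-0.35, limma adjusted p = 0.109), without FVB male replicate 1 or 2, and without TNFTg female replicate 2 or 3 or male replicate 2 or 3 of 3 weeks (limma adjusted p = 0.0526 to 0.0791). It was also lost without 3 FVB arrays together, the one that stood apart and the 2 males that carry Xist (-0.51, limma adjusted p = 0.0878), where the lone FVB male and lone FVB female that remain take their spread from the other groups.

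Dlk1 encodes a membrane protein of the Delta family that is abundant in fetal tissues, keeps precursor cells from differentiating and is read from the paternal copy. Its signal was 169.6, 191 and 180.1 in TNFTg females and 193.3, 148 and 192.8 in TNFTg males of 3 weeks, 127, 144 and 277 in TNFTg males of 13 weeks and 155, 190.7 and 252 in TNFTg females of 40 weeks. FVB hearts had 543 and 349.6 in females and 270.5, 163 and 196 in males. The 2 highest values of the 17 arrays were the FVB females, but the FVB males overlapped with every TNFTg group. Dlk1 fell by 0.75 (SE 0.22, limma adjusted p = 0.0101) in TNFTg hearts at 3 weeks. The highest FVB value came from the array that stood apart, and without it the log2 difference was -0.59 (limma adjusted p = 0.0603). The call was also lost without that array and the 2 FVB males that carry Xist (-0.56, limma adjusted p = 0.126) and with groups formed without sex (-0.64, limma adjusted p = 0.0621).

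Mest encodes a protein of the hydrolase fold, read from the paternal copy and abundant in embryonic mesoderm. Its signal was 739, 572 and 352 in TNFTg females and 575.5, 674 and 596 in TNFTg males of 3 weeks, 343, 617 and 388 in TNFTg males of 13 weeks and 667, 553.5 and 334 in TNFTg females of 40 weeks. FVB hearts had 313 and 133.5 in females and 612, 649 and 212 in males. FVB arrays were split, 3 of them below all TNFTg arrays and 2 among the highest TNFTg values. The 2 high FVB arrays are the males that carry Xist. Mest rose by 0.93 (SE 0.32, limma adjusted p = 0.0266) in TNFTg hearts at 3 weeks, to 190% of the FVB level. The call was lost without FVB female replicate 3 (0.62, limma adjusted p = 0.144), without FVB male replicate 3 (0.67, limma adjusted p = 0.0648), without TNFTg female replicate 1 or TNFTg male replicate 2 of 3 weeks (limma adjusted p = 0.0673 and 0.0523), and under 2 further alternatives. Without the FVB array that stood apart and the 2 FVB males that carry Xist it was 1.76 (limma adjusted p = 0.000677).

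At 3 weeks, then, 4 of the 7 genes were called between TNFTg and FVB hearts, Cdkn1c, Peg3 and Dlk1 lower and Mest higher, where limma called 46.6% of all tested probe sets, 24.7% higher and 21.9% lower, so the share of the 7 is near that of the whole array. The median log2 difference was -0.46 over the 7 genes and -0.006 over all 7453 tested probe sets. Cdkn1c had the 46th lowest difference of the 7453 probe sets, counted from the lowest.

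**Figure D2:**
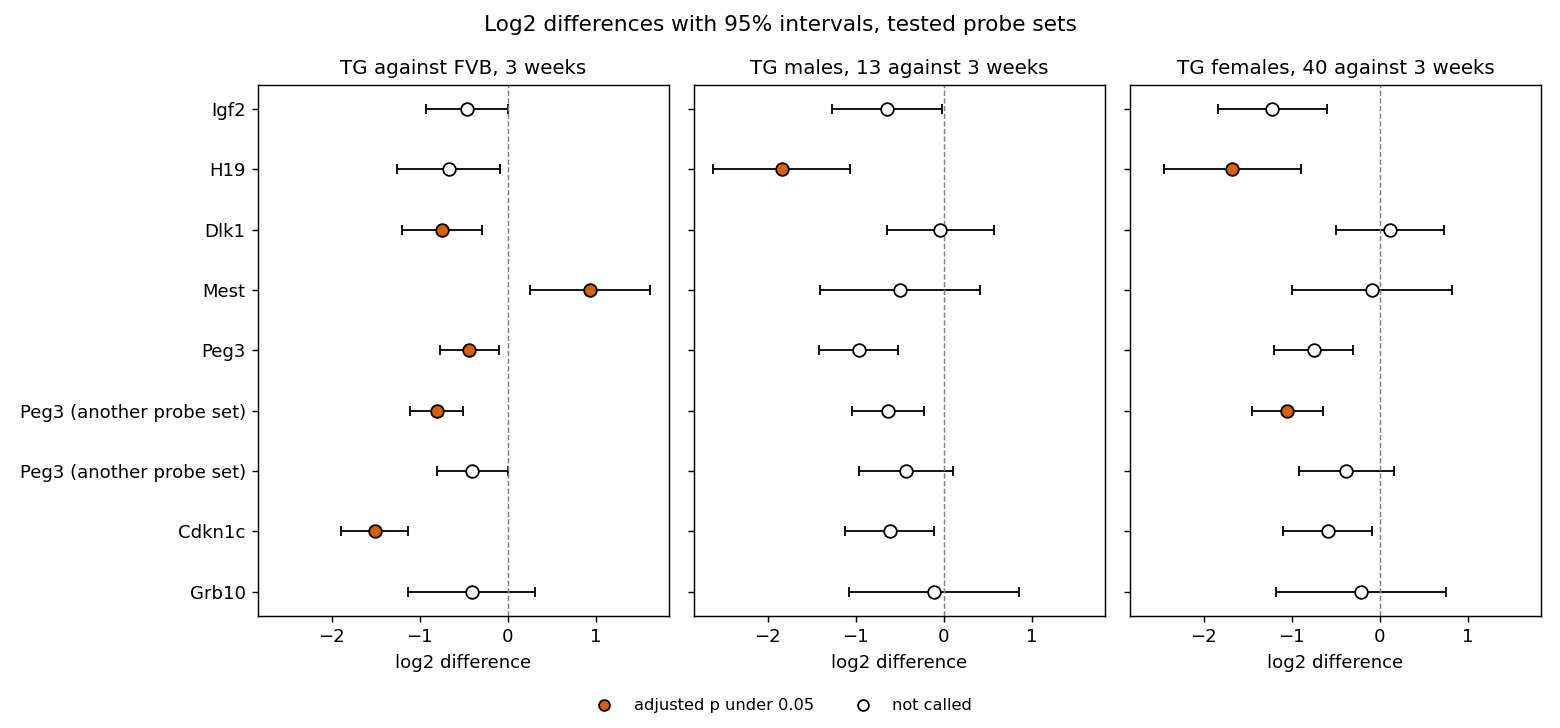
Log2 differences (horizontal axis) with 95% intervals for the 9 tested probe sets, in TNFTg against FVB hearts of 3 weeks, in TNFTg males of 13 against 3 weeks and in TNFTg females of 40 against 3 weeks. Filled points passed a limma adjusted p of 0.05. Cdkn1c is the lowest at 3 weeks (-1.51), and H19 is the lowest in both age comparisons (-1.84 and -1.67).

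The question of the age comparisons is what happens to these genes as TNFTg hearts grow older. H19 fell by 1.84 (SE 0.37, limma adjusted p = 0.028) in TNFTg males of 13 weeks, to 27.9% of the level of TNFTg males of 3 weeks, which was the 5th lowest difference of all 7453 probe sets. It fell by 1.67 (SE 0.37, limma adjusted p = 0.0485) in TNFTg females of 40 weeks, to 31.4% of the level of TNFTg females of 3 weeks, the 7th lowest. By its brightest probe set H19 was the only gene of the 7 called in either comparison, and of the 9 tested probe sets of the 7 genes 1 other was called, the second of Peg3 in females. Limma called 0.523% of all tested probe sets in males (0.349% higher and 0.174% lower) and 0.671% in females (0.376% higher and 0.295% lower). The 3 arrays on each side limit both calls. The call in males was lost on leaving out any 1 of its 6 arrays (limma adjusted p = 0.0543 to 0.148), and the call in females was lost in 19 of 28 alternatives. Leaving out any array other than FVB female replicate 1 or 3 or TNFTg male replicate 2 of 13 weeks ended the call in females (limma adjusted p = 0.0546 to 0.264), with log2 differences of -1.91 to -1.38.

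None of the other 6 genes was called by its brightest probe set in either age comparison, and 5 of them lay below 0 in both. Igf2 was at -0.65 (SE 0.29, limma adjusted p = 0.555) in males of 13 weeks and at -1.22 (SE 0.29, limma adjusted p = 0.087) in females of 40 weeks. Peg3 was at -0.97 (SE 0.21, limma adjusted p = 0.054) and at -0.75 (SE 0.21, limma adjusted p = 0.167) by its brightest probe set. Its second probe set was at -0.63 (limma adjusted p = 0.214) in males and fell by 1.05 (SE 0.19, limma adjusted p = 0.0121) in females, to 48.3% of the level at 3 weeks. Cdkn1c was at -0.62 in males and -0.59 in females (limma adjusted p = 0.408 and 0.427). Mest was at -0.50 in males and -0.09 in females, Grb10 at -0.12 and -0.21, and Dlk1 at -0.04 and 0.12, all with a limma adjusted p of 0.883 or more. The brightest Peg3 probe set was called at 13 weeks in 9 of 28 alternatives, among them without TNFTg male replicate 1 of 13 weeks (-1.21, limma adjusted p = 0.015), and Igf2 at 40 weeks in 5, among them without FVB female replicate 1 or 3 (limma adjusted p = 0.0164 and 0.0159). The difference between the 2 age changes was tested and not called for any probe set of the array by limma, with 214 of 7453 (2.87%) at an unadjusted p under 0.05, and none of the 7 genes among those. For H19 that difference was 0.17 (95% interval -0.93 to 1.27), for Igf2 -0.57 (-1.45 to 0.31).

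The mean of the 2 age changes, a comparison added after the data had been seen, uses 6 arrays of 3 weeks and 6 later ones. H19 fell by 1.76 (SE 0.26, limma adjusted p = 0.00118), to 29.6% of the level at 3 weeks and 3rd lowest of all probe sets. Peg3 fell by 0.86 (SE 0.15, limma adjusted p = 0.00415) by its brightest and by 0.84 (SE 0.13, limma adjusted p = 0.00243) by its second probe set. Igf2 fell by 0.94 (SE 0.21, limma adjusted p = 0.0279), to 52.3%. These 3 of 7 genes stand beside 1.74% of all probe sets called in either direction and 0.698% called lower. The calls of H19 and Peg3 held in each of the 28 alternatives, and that of Igf2 was lost in 10 of them, namely without a filter (limma adjusted p = 0.0576), with groups formed without sex (limma adjusted p = 0.132), and on leaving out TNFTg male replicate 1 of 13 weeks, any TNFTg male, female 1 or female 2 of 3 weeks, or female replicate 1 or 2 of 40 weeks (limma adjusted p = 0.0515 to 0.0808).

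The 4 remaining genes were not called for the mean age change. Cdkn1c, which had the strongest difference from FVB at 3 weeks, was at -0.61 (SE 0.17, limma adjusted p = 0.0843), and was called without TNFTg female replicate 3 of 3 weeks (-0.73, limma adjusted p = 0.0339) or without female replicate 2 of 40 weeks (-0.73, limma adjusted p = 0.0308). Mest was at -0.29 (95% interval -0.94 to 0.35), Grb10 at -0.17 (-0.85 to 0.52) and Dlk1 at 0.04 (-0.39 to 0.47). The intervals of Mest and Grb10 reach about as low as the value of Peg3, and that of Dlk1 does not. Over the tested probe sets, 1.09% had all 6 later TNFTg arrays below all 6 TNFTg arrays of 3 weeks, and these held Igf2, H19 and 2 probe sets of Peg3. All 6 later TNFTg arrays lay below all 5 FVB arrays in 7.61% of probe sets, among them H19, Cdkn1c and the same 2 probe sets of Peg3.

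Levels of cell type markers stand beside these falls. The summed cardiomyocyte markers were 122828 to 237090 at 3 weeks, 142765 to 205605 at 13 weeks and 177566 to 238695 at 40 weeks in TNFTg hearts, and none of the 14 tested markers was called in either age comparison. Summed fibroblast and matrix markers were 36622 to 44101 at 3 weeks, 27529 to 38998 at 13 weeks and 29971 to 40194 at 40 weeks. Summed macrophage markers, which mark the inflammation of these hearts, were 52934 to 69566 at 3 weeks and 49222 to 64484 at 13 weeks, and 47043 to 51187 at 40 weeks, against 5469 to 7442 in FVB hearts. None of the 17 tested markers of either list was called in either age comparison. Among all marker lists 1 gene was called, Acta2 of smooth muscle, which fell by 0.93 (limma adjusted p = 0.0337) in females of 40 weeks. Their part in the falls of H19, Igf2 and Peg3 was not tested.

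Against FVB hearts of 3 weeks, where age and transgene differ together, 4 genes were lower in each of the later TNFTg groups. In TNFTg males of 13 weeks 4 of the 7 genes fell, where limma called 20.5% of probe sets and 7.77% lower. H19 fell by 2.998 (SE 0.37, limma adjusted p = 1.85e-05), to 12.5% of the level of FVB males, and Cdkn1c fell by 2.55 (SE 0.24, limma adjusted p = 1e-06), to 17.1%. Igf2 fell by 1.99 (limma adjusted p = 0.000114) and Peg3 by 1.86 (limma adjusted p = 8.33e-06), while Dlk1 (-0.26), Grb10 (-0.03) and Mest (-0.01) were not called. Without the FVB array that stood apart and the 2 FVB males that carry Xist, Mest was at 1.04 (limma adjusted p = 0.128). In TNFTg females of 40 weeks 4 of 7 fell against FVB females, where limma called 32.5% of probe sets and 13.7% lower. These were H19 (-1.86, limma adjusted p = 0.00341), Cdkn1c (-1.68, limma adjusted p = 0.000258), Dlk1 (-1.16, limma adjusted p = 0.0131) and Peg3 (-0.74, limma adjusted p = 0.0265). Igf2 was at -0.80 (limma adjusted p = 0.0725), Grb10 at -1.12 (limma adjusted p = 0.101) and Mest at 1.28 (limma adjusted p = 0.0505). Of the 2 FVB female arrays behind the last comparison 1 is the array that stood apart, and without it Igf2 was at -1.41 (limma adjusted p = 0.00741), Mest at 1.90 (limma adjusted p = 0.028) and Dlk1 at -0.84 (limma adjusted p = 0.147). Without the other, FVB female replicate 3, H19 was at -1.04 (limma adjusted p = 0.0501) and Peg3 at -0.56 (limma adjusted p = 0.137). Leaving out TNFTg replicate 1 or 2 of 40 weeks also ended the call of Peg3 (limma adjusted p = 0.064 and 0.0793). Mest was called in 12 of 28 alternatives, Grb10 without TNFTg replicate 1 of 40 weeks (-1.54, limma adjusted p = 0.0357) and Igf2 without replicate 3 (-0.98, limma adjusted p = 0.0465). A fit of only the 2 groups compared called 1 of the 7, Cdkn1c.

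The 2 comparisons share their FVB arrays with the comparison at 3 weeks, so their values are set side by side only. Ordered by mean signal, Igf2, H19, Cdkn1c, Grb10 and every Peg3 probe set were highest in FVB hearts of 3 weeks and next highest in TNFTg hearts of 3 weeks. The order alone does not mark the called genes, since Grb10 was not called and averaged 134.4 and 133.4 in TNFTg hearts of 3 and 13 weeks. H19 averaged 738.3 ± 200 at 3 weeks, 198.2 ± 56.8 at 13 weeks and 244.2 ± 81.1 at 40 weeks in TNFTg hearts (SD, n = 6, 3 and 3), against 1324 ± 478 in FVB hearts of 3 weeks (SD, n = 5). Igf2 averaged 2786 ± 890 at 3 weeks, 1324 ± 337 at 13 weeks and 1543 ± 398 at 40 weeks in TNFTg hearts, against 4280 ± 1700 in FVB hearts. For both genes the groups of 13 and 40 weeks overlapped.

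As labelled, the sexes of 3 weeks ran in opposite order in the 2 strains for Igf2. TNFTg females (2958 to 3836) were all above TNFTg males (1969.9 to 2079), while FVB females (1712 and 4018.5) were below FVB males (4035 to 6036). The sex difference of the transgene effect, female minus male, was 1.77 for Igf2 (SE 0.44, limma adjusted p = 0.118) and was not called, nor was any other probe set of the array, with 1228 of 7453 (16.5%) at an unadjusted p under 0.05. It was called when both identical columns were kept as 2 samples (1.97, limma adjusted p = 0.0308) and without FVB female replicate 3 (2.38, limma adjusted p = 0.00188), and was 0.80 (limma adjusted p = 0.708) without the array that stood apart and the 2 FVB male arrays that carry Xist. The other 6 genes ranged from -1.06 (Dlk1) to 0.97 (H19).

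**Figure D3:**
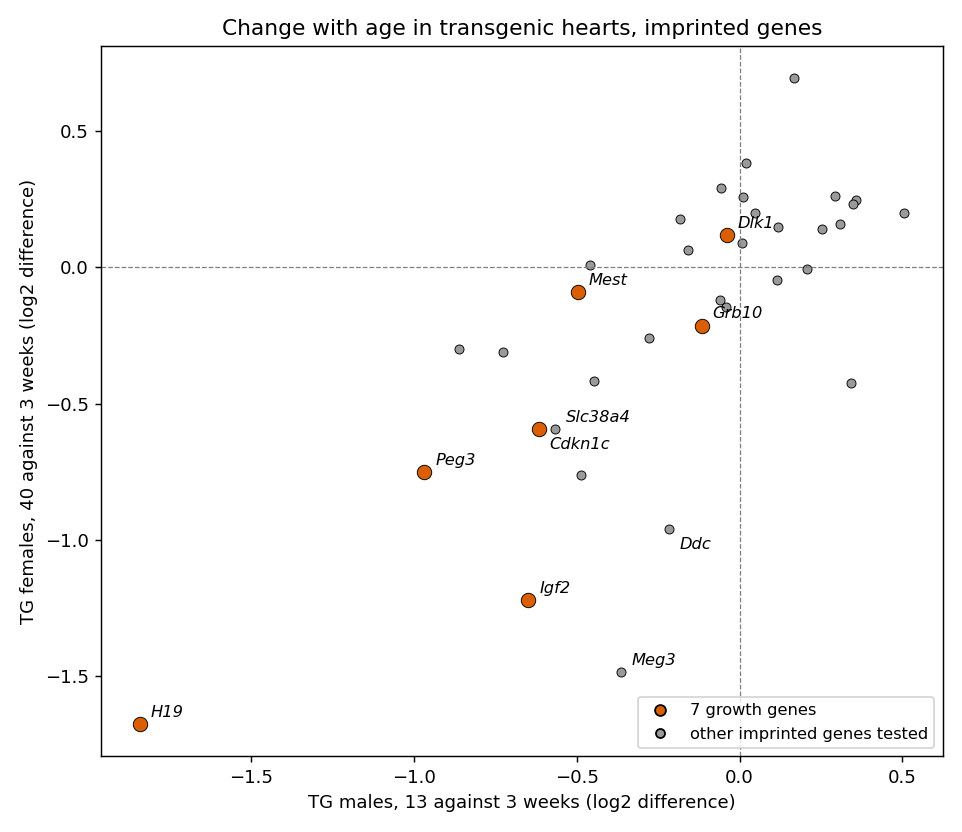
Log2 difference of TNFTg males of 13 against 3 weeks (horizontal axis) and of TNFTg females of 40 against 3 weeks (vertical axis) for each tested imprinted gene. Filled larger points are the 7 growth genes and grey points 29 other imprinted genes, and the 2 axes share no array. H19 lies lowest on both axes, at -1.84 and -1.67, and most grey points lie near 0, with Meg3 at -0.36 and -1.49.

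Other imprinted genes were taken from a list of 66, of which 42 were on the array and 29 were tested. At 3 weeks 8 of them rose, 7 fell and 14 were not called in TNFTg against FVB hearts, with a median log2 difference of -0.23. Limma called 46.6% of all tested probe sets in that comparison, so the share of these genes is near that of the whole array. The 6 of smallest p were Tspan32, a tetraspanin of blood cells (1.96), Gatm, the first enzyme of creatine synthesis (2.16), H13, a signal peptide peptidase (1.26), Pon3, a lactonase (1.06), Art5, a mono-ADP-ribosyltransferase (-1.06), and Cd9, a tetraspanin (0.80), each at a limma adjusted p of 0.000752 or less. None of the 29 was called at 13 weeks, where the median was 0.007, and 1 was called at 40 weeks, Ddc, an amine-forming decarboxylase that neighbours Grb10 on chromosome 11 (-0.96, SE 0.20, limma adjusted p = 0.0374), where the median was 0.063. For the 7 growth genes the same medians were -0.62 and -0.59, and both lists were chosen with earlier results of these data known. For the mean age change 2 of 29 fell, Slc38a4, an amino acid transporter (-0.58, limma adjusted p = 0.00673), and Ddc (-0.59, limma adjusted p = 0.0478).

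Meg3 is the maternally read non-coding RNA that neighbours Dlk1 on chromosome 12. Its signal was 59.0 to 203.6 in TNFTg hearts of 3 weeks, 25.8 to 161 at 13 weeks and 42.1 to 78.6 at 40 weeks. FVB hearts had 211 to 343, so TNFTg arrays of every age were below every FVB array. Over all tested probe sets this held for 9.14% with the TNFTg arrays of 3 weeks and for 7.61% with the later ones. Meg3 fell by 1.26 (SE 0.32, limma adjusted p = 0.00435) at 3 weeks, beside a fall of 0.75 for Dlk1. With age Meg3 was at -0.36 in males (limma adjusted p = 0.927) and -1.49 in females (limma adjusted p = 0.179), values that understate its size because 2 of 3 arrays at 13 weeks and 1 of 3 at 40 weeks lay at the floor. On distal chromosome 7, H19, Igf2, Tspan32 and Cdkn1c lie in that order in RefSeq's gene table of the mouse assembly GRCm38.p6. Their log2 differences at 3 weeks were -0.67, -0.46, 1.96 and -1.51, and those of H19 and Igf2 were not called. Of these named genes only Tspan32 lay above 0, and the other tested genes of the cluster are not given here.

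Receptors and partners of the IGF pathway were read beside Igf2 and Grb10. Igf1, the postnatal relative of Igf2, fell by 0.70 (SE 0.22, limma adjusted p = 0.0153) at 3 weeks in TNFTg hearts and was at -0.01 in both age comparisons. Igf1r, the receptor that carries the growth signal of both ligands, was at 0.35 (limma adjusted p = 0.0913) at 3 weeks, and Igf2r, the imprinted receptor that removes Igf2 from the cell surface, was at -0.36 (limma adjusted p = 0.144). Of 6 tested IGF receptors, ligands and binding proteins 2 rose, Igfbp7 (0.82) and Igfbp3 (0.85), and 2 fell, Igfbp6 (-0.97) and Igf1. At 3 weeks limma called 46.6% of all tested probe sets. Igfbp6, a binding protein that prefers Igf2 as ligand, rose by 1.26 (SE 0.24, limma adjusted p = 0.009) over the mean age change. Of 23 tested genes of insulin and IGF receptor signalling 3 rose and 5 fell at 3 weeks, among them Ptpn1, a phosphatase that acts on the insulin receptor (1.49), Tsc2, a brake on growth signalling (-1.01), and Foxo3, a transcription factor held in check by insulin signalling (-0.92). In this list 0 of 23 were called at 13 weeks and 1 at 40 weeks, the insulin receptor substrate Irs2 (-2.02, limma adjusted p = 0.0329). Grb7, a relative of Grb10, was at -0.35 (limma adjusted p = 0.459), while Insr, Plagl1, a regulator of imprinted genes, and Cdkn1b did not pass the filter on low signal.

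**Figure D4:**
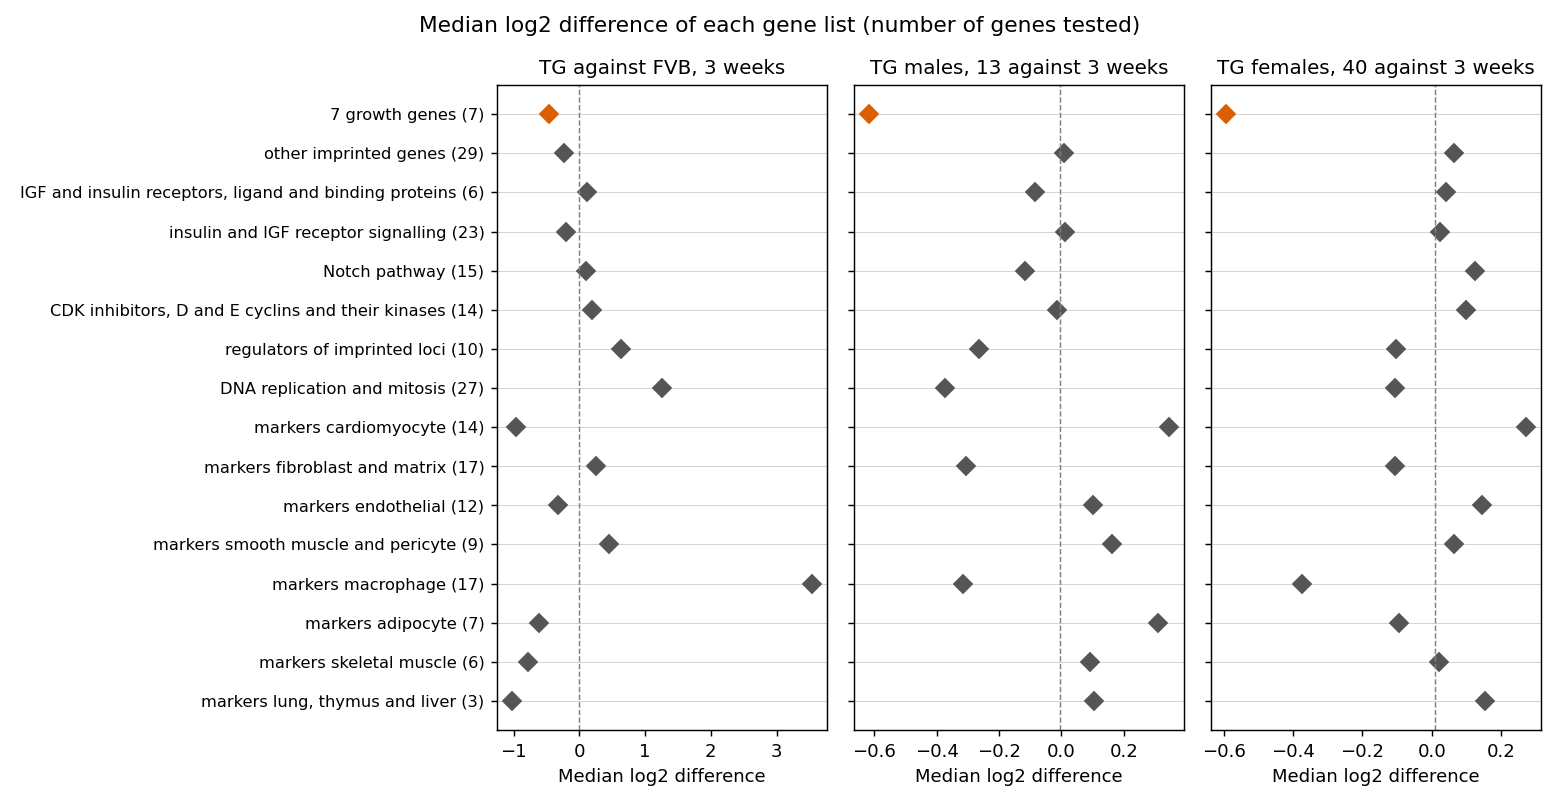
Median log2 difference (horizontal axis, its own range in each panel) of the tested genes of each list, with the number tested in brackets, for TNFTg against FVB hearts of 3 weeks, TNFTg males of 13 against 3 weeks and TNFTg females of 40 against 3 weeks. The dashed line is the median of all tested probe sets. The 7 growth genes have the lowest of these list medians in both age panels (-0.62 and -0.59). At 3 weeks they do not, and cardiomyocyte markers (-0.96) lie lower and macrophage markers (3.53) highest. The lists were chosen with earlier results of these data known, so their order is a description only.

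Cdkn1c was set beside other genes of the cell cycle. The counts at 3 weeks that follow stand beside 46.6% of all tested probe sets called by limma, 24.7% higher and 21.9% lower. A list held inhibitors of cyclin-dependent kinases, cyclins, their kinases and related genes such as those of the Rb family. Of its 14 tested genes 4 rose and 0 fell at 3 weeks in TNFTg hearts. Among those that rose were Rbl1, a pocket protein of the Rb family (1.27), and the D cyclins Ccnd1 (0.75) and Ccnd2 (0.76). Cdkn1a, the sister inhibitor p21, was at -0.003 (limma adjusted p = 0.989), against -1.51 for Cdkn1c. Of 27 tested genes of DNA replication and mitosis 23 rose, such as the helicase subunit Mcm5 (1.69) and the topoisomerase Top2a (2.07), with a median of 1.26. Of 14 tested cardiomyocyte markers 13 fell at 3 weeks, with a median of -0.96, and all 17 tested macrophage markers rose, with a median of 3.53, so both differed between the same groups as Cdkn1c, and their part in its fall was not tested. Of 10 tested regulators of imprinted loci 8 rose at 3 weeks, led by the DNA methyltransferases Dnmt1 (1.11) and Dnmt3a (1.32) and the transcription factor Yy1 (0.62), and 0 were called in either age comparison. In the Notch pathway, which Dlk1 can restrain, 3 of 15 rose, Adam10 (1.29), Mfng (0.64) and Rbpj (0.98), and 2 fell at 3 weeks, Dll1 (-0.70) and Hes1 (-0.44), which are named after their values were seen.

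Pearson's r of log2 signal over the 17 arrays was read off as a description, since the arrays fall into groups and share a scaling. Between members it was 0.959 for H19 and Peg3 and 0.884 for Igf2 and H19. Members were left out of the ranking, and the other genes that followed each member most closely were named. They were Aqp4 (0.938), Cav3 (0.926) and Arfgef1 (0.902) for Igf2, Ppargc1a (0.89), Cav3 (0.887) and Aqp4 (0.877) for H19, and Ppargc1a (0.878), Cav3 (0.877) and Ccdc80 (0.857) for Peg3. Cav3, the caveolin of muscle, stood in each of these 3 sets. Cdkn1c was followed by Efnb3 (0.947), Gas1 (0.942) and Hopx (0.929), and Dlk1 by Igf1 (0.939), Zan (0.925) and Zcchc7 (0.923). Mest was followed by Anln (0.835), Ckap2 (0.827) and Ap3d1 (0.821), and Grb10 by Btbd3 (0.808), Pdgfb (0.796) and Lman1 (0.796). No gene of the sets of Cdkn1c, Dlk1, Mest and Grb10 stood in another member's set.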

How the data were processed

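The authors' deposited values are probe set intensities (signals) on a linear scale. Per the file headers and labels they come from 1 Affymetrix U74Av2 array for each sample, and the software behind them is not given in the sources used here. Trimmed means of the arrays (2nd to 98th percentile) lay between 499.2 and 499.9, so no further scaling was applied. A floor of 44.675, the 25th percentile of the pooled signals, was applied before log2. The 60% brightest of 12422 probe sets that are not controls, 7453, were tested in a limma model (version 3.58.1, R 4.3.3, moderated by eBayes, two-sided). It fitted 6 group means (strain, age and sex as labelled in the sample titles) to 17 distinct arrays and left 11 residual degrees of freedom. The transgene effect at 3 weeks is the equal-weight mean of the female and male differences. A gene is represented by its brightest probe set, and symbols come from the platform annotation, which can be old. The script was tested on simulated data.

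The members and gene lists were chosen with earlier results of these data known. The rule for named genes was: all 7 members, up to 6 called genes of smallest p among other imprinted genes and up to 3 in each other list. It added the 3 genes, other than members, most like each member. Igf1, Igf1r, Igf2r, Insr, Plagl1, Meg3, Grb14, Grb7, Cdkn1a and Cdkn1b were always looked up. Grb14 had no probe set with its symbol. Promoter and microRNA sequences are RefSeq's, build GRCm38.p6. The precision is limited by 2 to 6 arrays a group, and no batch, date or replicate pairing was used in the fit. Samples with the same replicate number did not deviate together (r -0.336 to 0.466 over 40 pairs, median 0.054).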

Additional observations from a re-analysis of the deposited data

Results flagged for a closer look

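In 18 combinations of a group of 4 to 10 arrays and a tested probe set of the 7 genes, 3 held an array whose gap to the nearest other array was a larger share of the group's range than Dixon's 95% critical value. Chance flags about 1 in 20 such groups. H19 in TNFTg hearts of 3 weeks was highest in female replicate 1, at 1129.1, with the next array at 747.4, a gap of 0.691 of the range against a critical value of 0.625. Peg3, by its brightest probe set, was highest on the same array, at 663.7, with the next at 521.5, a gap of 0.708 of the range. H19 in FVB hearts of 3 weeks was lowest on the female array deposited as replicates 1 and 2, at 482.8, with the next at 1399.8, a gap of 0.795 of the range against a critical value of 0.71. This is the FVB array that stood apart from all others, and only it lay between the signals of TNFTg hearts of 3 weeks and later ages for H19.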

How the results depend on the processing

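Counts of called genes among the 7 were recomputed under 28 alternatives, 27 for the sex difference, and no value that had been called changed sign. Leaving out 1 array at a time, the count was 2 to 5 (4 with all arrays) for TNFTg against FVB hearts at 3 weeks, 0 to 2 (1) for 13 against 3 weeks, 0 to 2 (1) for 40 against 3 weeks, 4 to 4 (4) for TNFTg males of 13 weeks against FVB males, 2 to 6 (4) for TNFTg females of 40 weeks against FVB females, 2 to 4 (3) for the mean age change, 0 to 0 (0) for the difference between the age changes and 0 to 3 (0) for the sex difference. For 13 against 3 weeks it was 2 with quantile normalisation, log2 of signal plus 50, a higher floor (40th percentile), an intensity trend with robust variance or both identical columns kept, and 0 without a filter. For 40 against 3 weeks it was 2 with that floor, the trend, or without 3 doubted FVB arrays, and 0 with quantile normalisation, no filter, only the groups compared or both identical columns kept. With the replicate number as a block it was also 0 for 40 against 3 weeks, where H19 was at -1.67 (limma adjusted p = 0.0682), but the numbers do not pair the samples, and the block moved no other count by over 1.5 times. For TNFTg females of 40 weeks against FVB females it was 1 with only the groups compared, and for the sex difference 1 with both identical columns kept. The causes of these shifts were not tested. The comparisons rest on 2 or 3 arrays of a sex, FVB hearts were measured at 3 weeks only, and the sex labels of 2 FVB arrays go against their Xist signal, so age, sex and transgene are separated only where groups share the others.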
